A study of Mus musculus with 30 samples.

Results

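Type I interferon stimulated genes are described here across the colons of 30 mice of 6 genotypes. The list holds 34 genes, picked by name as members of this response, out of 55487 gene identifiers in the deposited table. Each member was found in the table by its Ensembl identifier, paired with its symbol through the gene annotation of build GRCm38. They were picked for their known role and by no cutoff on a measured value, but with earlier results of these data known.

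The TNFR1 triple knockout (labelled XBP1IEC-KO;Casp8IEC-KO;TNFR1IEC-KO) lacked Xbp1, Casp8 and Tnfr1 in the epithelial cells of the gut lining (IEC). The MLKL triple knockout (XBP1IEC-KO;Casp8IEC-KO;MLKLKO) carried the same epithelial deletions of Xbp1 and Casp8 together with a loss of Mlkl for which the label names no cell type. The double knockout (XBP1IEC-KO;Casp8IEC-KO) lacked both epithelial genes, and the Xbp1 knockout (XBP1IEC-KO) and the Casp8 knockout (Casp8IEC-KO) lacked 1 each. The WT group is labelled only WT. There were 5 mice in each group and 1 library of colon RNA for each mouse, made with a 3′ tag method that counts reads near the end of each transcript. The labels do not give the age, the strain or the Cre driver behind the epithelial deletions. The RNA came from colon tissue that also holds muscle, immune and nerve cells, so fewer cells of a type and less RNA per cell cannot be told apart.

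Type I interferons are cytokines that most cells make after sensing viral or misplaced nucleic acid, and that act on a receptor made of IFNAR1 and IFNAR2. The receptor's kinases JAK1 and TYK2 switch on the transcription factor complex ISGF3, which contains STAT2 and IRF9. ISGF3 binds the interferon-stimulated response element (ISRE) in front of its target genes, and many of these targets restrict viruses or sense their RNA. In the gut, interferon lambda acts mainly on epithelial cells through another receptor and switches on much the same genes.

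The promoters of the members were searched for the core letters of the ISRE because these letters are the common entry point of the response. The search used GAAANNGAAA and its reverse complement TTTCNNTTTC in the window from 250 bases before to 50 bases after each gene's start, with sequences from RefSeq on build GRCm38.p6. Of the 34 members 26 had a promoter in that table, and 13 of these 26 (50%) held at least 1 match, against 3.99% of all 27025 genes with a promoter of the same length. At least 2 matches in a single promoter were found in 5 members, Isg15, Ifit1, Ifit3, Bst2 and Oas1a, against 0.266% of all genes. The 160 bases in front of the start of these 5 genes follow on the coding strand, 5′ to 3′, with the matches in capitals. In Isg15, Bst2 and Oas1a the matches overlap and share a run of letters.
Isg15 (chr4:156200819-156200978, minus strand): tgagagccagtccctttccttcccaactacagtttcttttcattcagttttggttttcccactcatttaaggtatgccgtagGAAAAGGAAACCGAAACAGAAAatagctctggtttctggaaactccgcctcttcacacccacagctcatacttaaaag
Ifit1 (chr19:34640729-34640888, plus strand): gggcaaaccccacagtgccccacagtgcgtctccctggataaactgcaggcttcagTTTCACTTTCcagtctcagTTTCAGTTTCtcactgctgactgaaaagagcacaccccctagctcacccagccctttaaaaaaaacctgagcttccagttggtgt
Ifit3 (chr19:34583369-34583528, plus strand): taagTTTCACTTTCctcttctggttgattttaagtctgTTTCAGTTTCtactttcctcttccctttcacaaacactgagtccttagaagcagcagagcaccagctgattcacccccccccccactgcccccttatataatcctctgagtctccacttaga
Bst2 (chr8:71537473-71537632, minus strand): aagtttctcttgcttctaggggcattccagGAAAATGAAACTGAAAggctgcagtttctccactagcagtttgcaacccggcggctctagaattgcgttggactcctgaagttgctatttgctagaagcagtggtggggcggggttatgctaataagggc
Oas1a (chr5:120907526-120907685, minus strand): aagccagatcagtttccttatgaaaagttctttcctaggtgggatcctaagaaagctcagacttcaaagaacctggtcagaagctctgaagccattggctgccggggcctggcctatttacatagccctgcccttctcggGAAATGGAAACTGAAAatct
Isg15 held 3 matches and each of the other 4 held 2. The 13 members with a promoter in the table but no match included Oasl2 and Irf7. A match is a stretch of letters and not a measured binding site, and no match says only that these letters are absent from this window.

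Values are CPM, the reads of a gene in every 1000000 reads of its library, after scaling by the trimmed mean of M values (TMM), which adjusts for library composition. Library totals lay between 3516792.6 and 5823059.7 reads, so 1 read was worth about 0.232 CPM in the median library. All 34 members passed the low-count filter of the test, but 11 of them fell below its level of 2.32 CPM in at least 1 WT library and 3 in every WT library, so these entered the test through other genotypes. The targeted genes were read first. Casp8 had 16.5 to 33.4 CPM in the TNFR1 triple knockout, 12.1 to 29.5 CPM in the MLKL triple knockout, 21.9 to 46.1 CPM in the double knockout and 24.5 to 34.7 CPM in the Casp8 knockout, all below the 51.3 to 58.5 CPM of WT. The library labelled Xbp1 knockout replicate 2 had 21 CPM of Casp8, which goes against its label, while the other 4 of its group had 44.8 to 66.5 CPM. Mlkl had 1.29 to 4.36 CPM in MLKL triple knockout replicates 1 to 4 and 10.6 CPM in the library labelled MLKL triple knockout replicate 5, above the 5.7 to 9.84 CPM of WT. Mlkl was also high in the library labelled TNFR1 triple knockout replicate 1 (30.1 CPM), Xbp1 knockout replicate 5 (33.9 CPM) and double knockout replicate 4 (29.1 CPM), which recur in the results. Tnfrsf1a had 75.1 CPM in the library labelled TNFR1 triple knockout replicate 1, inside the 64.8 to 78.5 CPM of WT. The other 4 of that group had 52.2 to 61.2 CPM, all below WT. Groups whose labels name no loss of Tnfr1 also reached below WT. They had 53.5 to 87.4 CPM in the MLKL triple, 55.4 to 71.6 CPM in the Xbp1 and 56 to 76.3 CPM in the Casp8 knockout. The double knockout had 74.2 to 112 CPM. A level below WT therefore does not mark this deletion. Xbp1 had 109 CPM in the library labelled TNFR1 triple knockout replicate 1 and 51.9 to 62.7 CPM in the other 4 of its group. It had 62.3 to 87.8 CPM in the MLKL triple knockout, 70.1 to 139 CPM in the double knockout and 50.9 to 64.9 CPM in the Xbp1 knockout, against 52.6 to 99.7 CPM in WT, so that the groups overlapped. A 3′ tag outside the deleted part of a gene checks nothing, and the labels do not give the deleted parts.

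Averaged over the 34 members on the log2 CPM scale, the level was far higher in 3 libraries than in all the others. These were the library labelled TNFR1 triple knockout replicate 1 at 5.95, the library labelled MLKL triple knockout replicate 5 at 6.79 and Xbp1 knockout replicate 5 at 6.46, against 2.88 to 3.28 in the WT libraries. The rest of the TNFR1 triple knockout lay at 3.39 to 4.09, the rest of the MLKL triple knockout at 3.79 to 4.14 and the rest of the Xbp1 knockout at 3.12 to 3.5. The double knockout had no such single library and spread from 3.15 in replicate 3 through 3.8, 4.59 and 4.61 to 5.12 in replicate 4. The Casp8 knockout had 3.77, 4.22 and 4.06 in replicates 1, 3 and 4, and 3.08 and 2.89 in replicates 2 and 5.

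**Figure D1:**
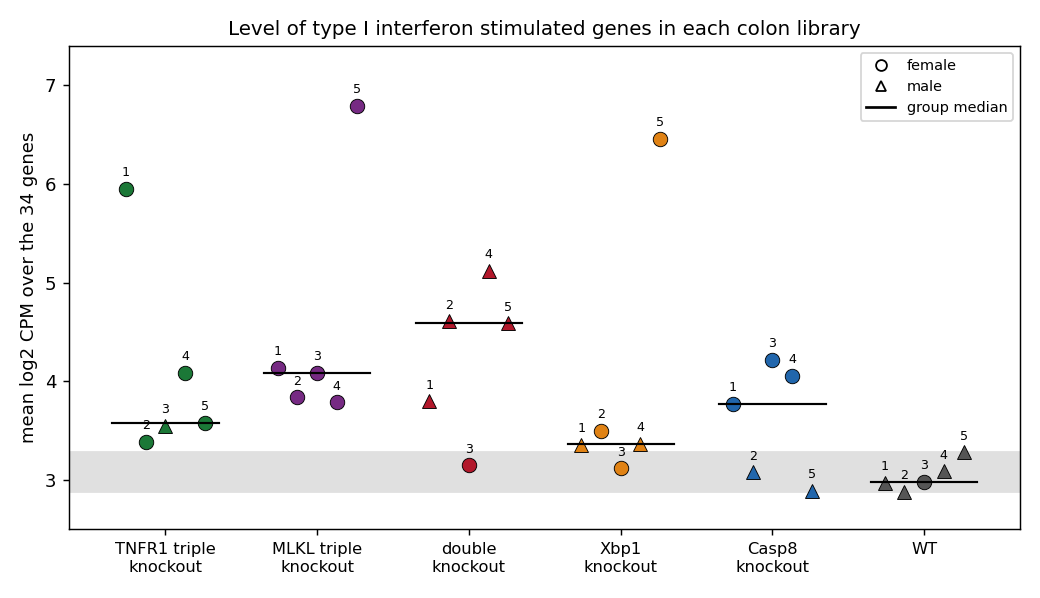
Each point is 1 colon library, placed by its mean log2 CPM over the 34 genes and numbered by replicate, with circles for females, triangles for males, a line at the group median and the range of the WT libraries shaded. A single library stands above 5.9 in each of the TNFR1 triple, MLKL triple and Xbp1 knockouts, while the double knockout is spread between 3.15 and 5.12.

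These 3 libraries were the 3 highest of all 30 for 32 of the 34 members. Of all 15458 genes tested, 91 (0.589%) had the same 3 libraries on top. In each of the 3 genotypes the high library was the highest of its group for 34 of 34 members. Relative to the mean of the WT libraries, the median member was higher by 2.56 on the log2 scale in the library labelled TNFR1 triple knockout replicate 1, by 3.48 in the library labelled MLKL triple knockout replicate 5 and by 3.12 in Xbp1 knockout replicate 5. The members differed in size: Ifi44, an interferon-induced cytoplasmic protein, was higher by 6.25, 7.28 and 6.88 in these libraries, and Ifih1 by 1.39, 1.8 and 1.61. The share of reads from the mitochondrial genome was 17.1%, 16.8% and 17.2% in the 3 libraries, within the 16% to 18.8% of the WT libraries.

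**Figure D2:**
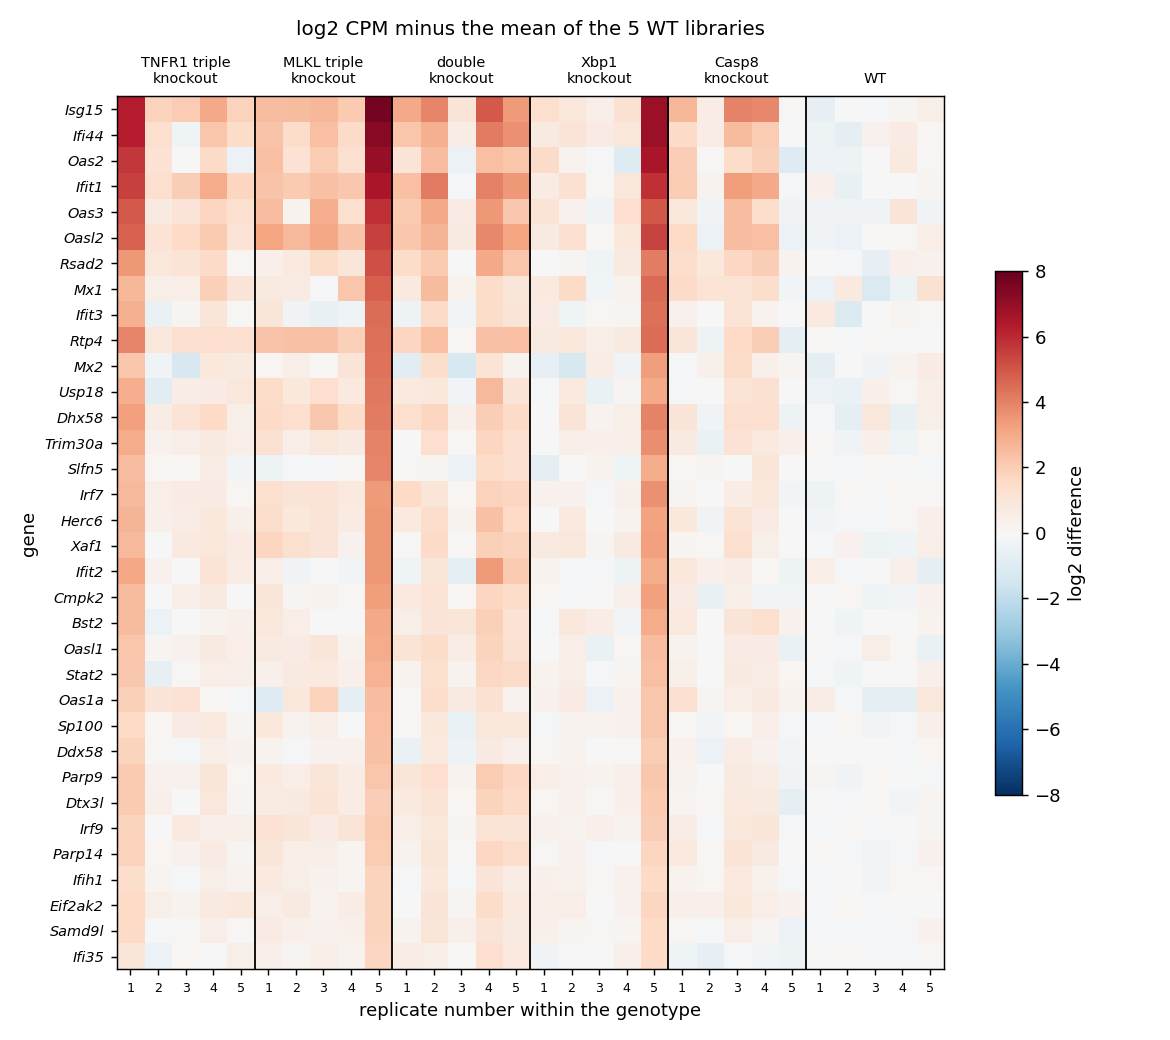
Each cell is the log2 CPM of 1 gene (row) in 1 library (column) minus the mean of the 5 WT libraries, from blue (lower) to red (higher), with genes ordered by their highest difference. The library labelled TNFR1 triple knockout replicate 1, the library labelled MLKL triple knockout replicate 5 and Xbp1 knockout replicate 5 are red along the whole column, and Isg15 reaches 6.31, 7.65 and 6.87 there.

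The spread within a genotype was wide for the members where such a library was present. The median SD of a member over the 5 libraries, on the log2 scale, was 1.03 in the TNFR1 triple knockout, 1.22 in the MLKL triple knockout, 0.74 in the double knockout, 1.39 in the Xbp1 knockout, 0.516 in the Casp8 knockout and 0.289 in WT. Over all genes tested the same SD was 0.262, 0.263, 0.303, 0.233, 0.263 and 0.232 in that order. Without its highest library the median SD of a member was 0.389 in the TNFR1 triple knockout, 0.319 in the MLKL triple knockout and 0.286 in the Xbp1 knockout, but 0.671 in the double knockout.

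The sensors of viral RNA come first. Ifih1 encodes MDA5, which detects long double-stranded RNA in the cytoplasm. Ifih1 had 156, 67.5, 53.3, 80.3 and 71 CPM in replicates 1 to 5 of the TNFR1 triple knockout, 99.8, 82.5, 74, 69.8 and 207 CPM in the MLKL triple knockout and 56, 109, 55.8, 123 and 90.3 CPM in the double knockout. The Xbp1 knockout had 78.9, 76.6, 62.3, 73.9 and 182 CPM and the Casp8 knockout 72.2, 64.8, 99.9, 74.3 and 55.1 CPM, against 52.4, 61.1, 50.8, 66.8 and 67.1 CPM in WT. The double knockout was split, with replicates 2, 4 and 5 above every WT library and replicates 1 and 3 inside the WT range. Between the double knockout and WT, Ifih1 did not pass the test (log2 fold change 0.54 ± 0.303 SE, adjusted p = 0.214 by edgeR's quasi-likelihood test with Benjamini-Hochberg adjustment over all 15458 genes, which holds for each adjusted p below). Ddx58 encodes RIG-I, which detects RNA with a free triphosphate end. Its CPM were 69.1, 21.7, 18.8, 27.9 and 25.5 in TNFR1 triple knockout replicates 1 to 5, 24.8, 18.2, 24.9, 25.5 and 105 in MLKL triple knockout mice and 13.8, 35.2, 14.7, 32.8 and 26.1 in the double knockout. Ddx58 stood at 22.6, 24, 19.2, 21.6 and 83.3 CPM in Xbp1 knockout mice and 25.8, 14, 30.7, 25.9 and 16.6 CPM in Casp8 knockout mice, against 19.9, 20.1, 19.7, 17.9 and 22.3 CPM in WT. With the 3 high libraries counted, 3 TNFR1 triple, 4 MLKL triple, 3 double, 3 Xbp1 and 3 Casp8 knockout libraries were above every WT library. Double knockout replicates 1 and 3 and Casp8 knockout replicates 2 and 5 were below every WT library. The difference between double knockout and WT was 0.28 ± 0.445 on the log2 scale (adjusted p = 0.702). Dhx58 encodes LGP2, a relative of both that tunes their signals. For Dhx58 the TNFR1 triple knockout libraries held 29.3, 4.21, 6.19, 8.77 and 3.83 CPM, the MLKL triple knockout 8.27, 7.25, 13.1, 8.05 and 55.1 CPM and the double knockout 7.49, 9.68, 3.57, 11.8 and 8.62 CPM. Those of the Xbp1 knockout held 2.67, 5.77, 3.3, 3.75 and 48.7 CPM and those of the Casp8 knockout 5.73, 2.07, 7.09, 7.35 and 1.91 CPM, against 2.41, 1.42, 5.26, 1.62 and 3.89 CPM in WT. All 5 MLKL triple knockout libraries lay above every WT library, and so did 4 of 5 double knockout libraries. For the double knockout against WT the log2 fold change was 1.48 ± 0.794 (adjusted p = 0.187).

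The signalling members follow. Stat2 encodes the subunit of ISGF3 that carries its activation domain. Its CPM were 78.8, 11, 18.3, 25.3 and 23.7 in TNFR1 triple knockout replicates 1 to 5, 23.5, 29, 30, 23.3 and 121 in MLKL triple knockout mice and 20.7, 42.8, 21, 55.4 and 50.6 in the double knockout. Stat2 stood at 20.9, 24.7, 16.3, 19.9 and 92.5 CPM in Xbp1 knockout mice and 24.1, 17.4, 28.8, 26.1 and 19.4 CPM in Casp8 knockout mice, against 16.4, 13.5, 16.9, 18.1 and 23.1 CPM in WT. The MLKL triple knockout and WT did not overlap, and replicates 2, 4 and 5 of the double knockout were above every WT library. The double knockout differed from WT by 1.10 ± 0.497 on the log2 scale (adjusted p = 0.111). Irf9 encodes the DNA-binding subunit of ISGF3. For Irf9 the TNFR1 triple knockout libraries held 139, 39.3, 68.1, 52.6 and 54.3 CPM, the MLKL triple knockout 89.7, 77, 61.5, 81.9 and 167 CPM and the double knockout 56.2, 73.9, 45.4, 85.7 and 80.3 CPM. Those of the Xbp1 knockout held 50.7, 48.7, 51.6, 48.8 and 158 CPM and those of the Casp8 knockout 58.8, 36.8, 74.2, 77 and 37.3 CPM, against 35.1, 42, 35.7, 39.7 and 45.9 CPM in WT. Every MLKL triple knockout library and every Xbp1 knockout library was above every WT library. In the double knockout 4 of 5 were, with a log2 fold change of 0.78 ± 0.329 against WT (adjusted p = 0.0873). Irf7 encodes the factor that drives the interferon alpha genes once interferon has been sensed. Irf7 had 164, 39.5, 42, 41.7 and 30 CPM in replicates 1 to 5 of the TNFR1 triple knockout, 63.9, 54.9, 57.1, 46.5 and 284 CPM in the MLKL triple knockout and 80.6, 51.5, 30, 96.1 and 88.5 CPM in the double knockout. The Xbp1 knockout had 33.3, 34.2, 24.8, 35.2 and 333 CPM and the Casp8 knockout 31, 26.2, 40.2, 51.2 and 22.9 CPM, against 20.4, 28.8, 26.3, 30.2 and 28.5 CPM in WT. The double knockout libraries 1, 2, 4 and 5 and all MLKL triple knockout libraries were above every WT library, and the double knockout differed from WT by 1.37 ± 0.608 (adjusted p = 0.106). The end of Irf7 overlaps the gene Phrf1 on the opposite strand, which averaged 81.6 CPM, and no strand setting is given in the sources used here, so their reads cannot be told apart. Usp18 encodes the protease that removes ISG15 from proteins and damps the receptor. Its CPM were 22.8, 1.17, 4.2, 4.38 and 5.18 in TNFR1 triple knockout replicates 1 to 5, 8.01, 5.1, 7.26, 4.92 and 55.6 in MLKL triple knockout mice and 4.89, 5.1, 2.18, 17.7 and 5.9 in the double knockout. Usp18 stood at 2.43, 4.85, 1.65, 3.05 and 24.4 CPM in Xbp1 knockout mice and 2.29, 2.59, 6.14, 6.59 and 2.73 CPM in Casp8 knockout mice, against 1.75, 1.65, 3.66, 2.78 and 3.89 CPM in WT. Replicate 4 of the double knockout was well above its other 4 libraries, and the log2 fold change against WT was 1.35 ± 0.809 (adjusted p = 0.241). Usp18 lies 4.1 Mb from Tnfrsf1a, 1 of the genes targeted in the TNFR1 triple knockout.

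**Figure D3:**
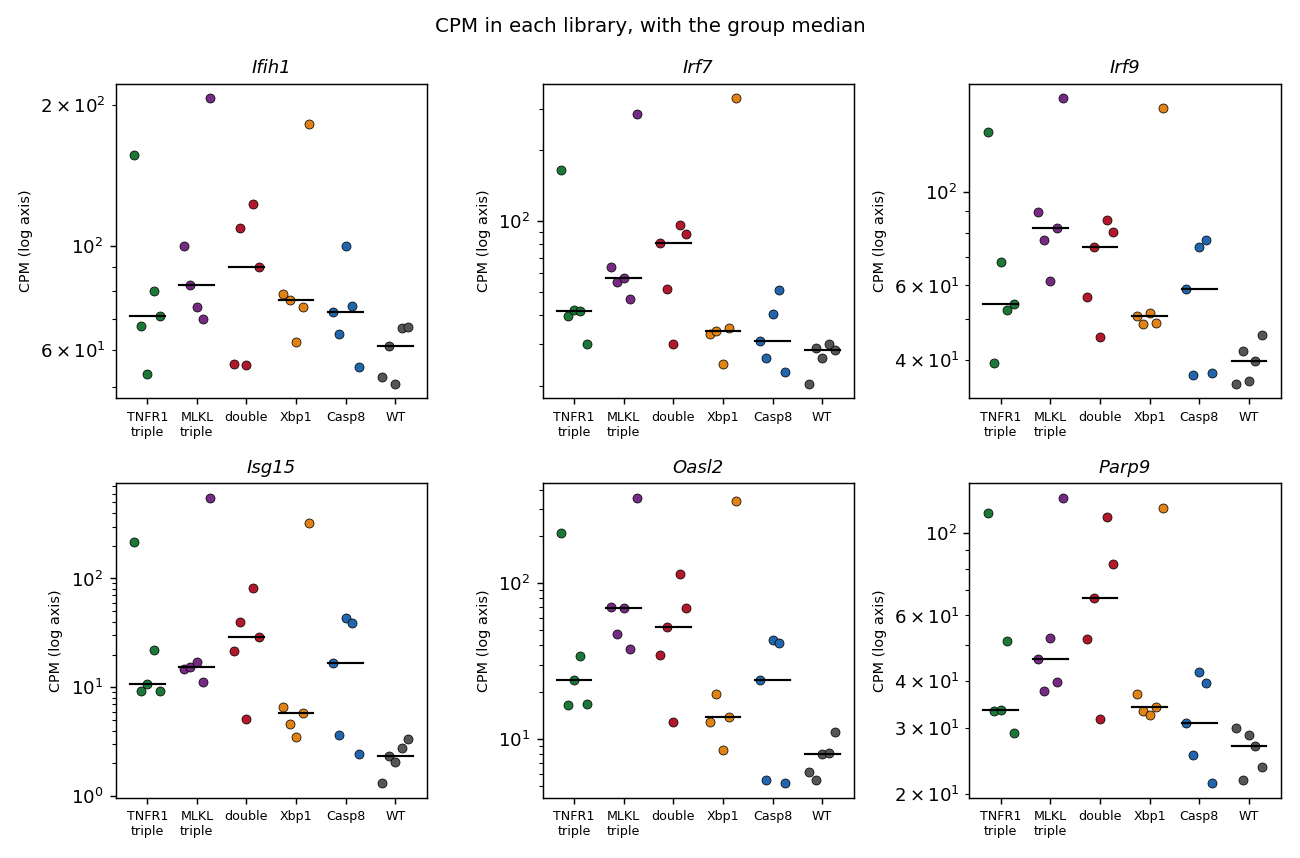
Points are the CPM of 6 members in each library on a log axis, with a line at the group median; replicates run from 1 to 5 from left to right within a group. The 3 high libraries reach 156 to 207 CPM of Ifih1 and 218 to 552 CPM of Isg15, and the double knockout's other high values of Isg15 run up to 81.8 CPM.

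Isg15, a ubiquitin-like protein attached to other proteins and also secreted, showed the widest range of the abundant members. For Isg15 the TNFR1 triple knockout libraries held 218, 9.35, 10.8, 22.1 and 9.24 CPM, the MLKL triple knockout 14.7, 15.5, 17.2, 11.2 and 552 CPM and the double knockout 21.8, 40, 5.16, 81.8 and 28.8 CPM. Those of the Xbp1 knockout held 6.55, 4.62, 3.51, 5.86 and 321 CPM and those of the Casp8 knockout 16.9, 3.63, 43.2, 39.3 and 2.45 CPM, against 1.31, 2.36, 2.06, 2.78 and 3.37 CPM in WT. All libraries of the TNFR1 triple knockout, the MLKL triple knockout, the double knockout and the Xbp1 knockout were above every WT library, as were 4 of 5 Casp8 knockout libraries. Against WT, the log2 fold change of Isg15 was 4.49 ± 1.54 in the TNFR1 triple knockout (adjusted p = 0.111), 5.68 ± 1.53 in the MLKL triple knockout (adjusted p = 0.0678) and 3.88 ± 1.56 in the double knockout (adjusted p = 0.074). It was 4.84 ± 1.53 in Xbp1 knockout mice (adjusted p = 0.166) and 3.17 ± 1.62 in Casp8 knockout mice (adjusted p = 0.343). None of the 5 passed in this fit, in which the 6 genotypes share 1 estimate of each gene's spread. In edgeR fits of each group and WT alone, Isg15 rose in the TNFR1 triple (adjusted p = 0.0304), MLKL triple (0.028), double (3.96e-04) and Casp8 (0.0195) knockouts. Without the library labelled MLKL triple knockout replicate 5 its log2 fold change in the MLKL triple knockout was 2.63. Without Xbp1 knockout replicate 5 the log2 fold change of Isg15 in the Xbp1 knockout was 1.11, and without the library labelled TNFR1 triple knockout replicate 1 it was 2.45 in the TNFR1 triple knockout. WT Isg15 rested on few reads, at 1.31 to 3.37 CPM.

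Oasl2, a mouse relative of the oligoadenylate synthetases, was among the members that passed the test. Oasl2 had 212, 16.6, 24.1, 33.9 and 16.7 CPM in replicates 1 to 5 of the TNFR1 triple knockout, 70.3, 47.1, 69, 38 and 355 CPM in the MLKL triple knockout and 34.9, 52.2, 12.9, 115 and 69.9 CPM in the double knockout. The Xbp1 knockout had 12.9, 19.4, 8.46, 13.8 and 336 CPM and the Casp8 knockout 23.8, 5.44, 43, 41.3 and 5.18 CPM, against 6.14, 5.43, 8.01, 8.12 and 11.1 CPM in WT. Oasl2 rose against WT in both the MLKL triple knockout (3.90 ± 0.989, adjusted p = 0.0499) and the double knockout (2.87 ± 0.984, adjusted p = 0.0355), with 5 of 5 libraries above every WT library in both groups. Without the library labelled MLKL triple knockout replicate 5 the first was 2.85 (adjusted p = 0.148), and that call was lost with any 1 of the 10 libraries left out. Ifit1, which binds foreign RNA caps and blocks their translation, is shown library by library because it passed the test. Its CPM were 184, 10.3, 16.1, 32.5 and 13.8 in TNFR1 triple knockout replicates 1 to 5, 19.6, 18, 21.5, 18.6 and 398 in MLKL triple knockout mice and 22.3, 73.9, 3.57, 67.7 and 47 in the double knockout. Ifit1 stood at 6.31, 9.47, 4.13, 7.51 and 247 CPM in Xbp1 knockout mice and 17.2, 4.67, 43.2, 33.7 and 3.27 CPM in Casp8 knockout mice, against 5.04, 2.36, 3.66, 3.95 and 4.4 CPM in WT. Relative to WT it rose in the double knockout (3.44 ± 1.26, adjusted p = 0.0497) although replicate 3 lay inside the WT range. Rtp4, a protein first known for carrying chemosensory receptors to the cell surface, is shown because it passed in 1 comparison. For Rtp4 the TNFR1 triple knockout libraries held 158, 19.2, 25, 27.1 and 25.7 CPM, the MLKL triple knockout 51.4, 53.1, 53.2, 39.6 and 224 CPM and the double knockout 35.3, 55.3, 11.3, 54.4 and 56.9 CPM. Those of the Xbp1 knockout held 16.7, 19.6, 14.2, 17.4 and 231 CPM and those of the Casp8 knockout 20.4, 7.78, 32.1, 40.6 and 5.72 CPM, against 10.7, 9.21, 10.8, 10.7 and 9.84 CPM in WT. Its log2 fold change in the MLKL triple knockout against WT was 3.03 ± 0.763 (adjusted p = 0.0494), and in the double knockout 2.04 ± 0.764 (adjusted p = 0.0539). The first was 2.27 (adjusted p = 0.14) without the library labelled MLKL triple knockout replicate 5, and again lost with any 1 of the 10 left out.

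Parp9 and Dtx3l, which form a complex that adds ADP-ribose and ubiquitin to histones and viral proteins, lie beside each other on chromosome 16 with overlapping starts and next to Parp14. Parp9 had 113, 33.2, 33.6, 51.4 and 29.1 CPM in replicates 1 to 5 of the TNFR1 triple knockout, 46, 37.6, 52.3, 39.8 and 124 CPM in the MLKL triple knockout and 51.8, 66.8, 31.6, 110 and 82.6 CPM in the double knockout. The Xbp1 knockout had 36.9, 33.2, 32.4, 34.2 and 116 CPM and the Casp8 knockout 31, 25.4, 42.3, 39.5 and 21.3 CPM, against 30, 21.7, 28.8, 26.9 and 23.6 CPM in WT. In the double knockout Parp9 rose relative to WT (1.38 ± 0.392, adjusted p = 0.0117) and relative to the Casp8 knockout (1.09 ± 0.389, adjusted p = 0.047). The double knockout was above every WT library in 5 of 5. Dtx3l is the ubiquitin ligase of the pair. Its CPM were 152, 47.9, 36.2, 66.2 and 40.8 in TNFR1 triple knockout replicates 1 to 5, 56.9, 58, 76.5, 54.1 and 139 in MLKL triple knockout mice and 62.6, 77.5, 39.5, 121 and 102 in the double knockout. Dtx3l stood at 40.3, 44.8, 37.8, 47.8 and 150 CPM in Xbp1 knockout mice and 41.9, 38.9, 62.6, 59.3 and 21.8 CPM in Casp8 knockout mice, against 36.6, 32.6, 37.1, 29.9 and 42 CPM in WT. Relative to WT it rose in the double knockout (1.17 ± 0.387, adjusted p = 0.0291), with 4 of 5 libraries above every WT library. Parp14, an ADP-ribosyltransferase, had the highest mean CPM of the 34 over the 30 libraries. For Parp14 the TNFR1 triple knockout libraries held 196, 59.4, 69.2, 85.3 and 61.5 CPM, the MLKL triple knockout 103, 77.2, 75, 61.1 and 221 CPM and the double knockout 65.3, 103, 57.4, 170 and 140 CPM. Those of the Xbp1 knockout held 57.3, 68.3, 47, 52.8 and 176 CPM and those of the Casp8 knockout 90.6, 56, 114, 86.2 and 54.8 CPM, against 57.4, 49.1, 44.9, 49.7 and 69.2 CPM in WT. Double knockout replicates 2, 4 and 5 were above every WT library, and the fold change against WT was 0.99 ± 0.377 on the log2 scale (adjusted p = 0.059). In double knockout replicate 4 these neighbours came close to the 3 high libraries: Parp9, Parp14 and Dtx3l were lower there than the mean of the 3 by 0.10, 0.21 and 0.28 on the log2 scale, whereas Oas2, an oligoadenylate synthetase, was lower by 3.98. Members on other chromosomes came as close: Ifi35 and Eif2ak2 were lower by 0.10 and 0.26, and Ifit2 was higher by 0.23.

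Samd9l, a restriction factor that limits translation, was another abundant member. Samd9l had 155, 48.4, 54.4, 72.9 and 55 CPM in replicates 1 to 5 of the TNFR1 triple knockout, 82.2, 68.4, 66.3, 67.8 and 176 CPM in the MLKL triple knockout and 62.7, 99.4, 69.3, 104 and 83.9 CPM in the double knockout. The Xbp1 knockout had 67.2, 60.3, 53.9, 60 and 158 CPM and the Casp8 knockout 55.6, 47.4, 72.5, 59.6 and 37.6 CPM, against 48.9, 46, 48.8, 49 and 66.1 CPM in WT. Every MLKL triple knockout library was above every WT library, and the double knockout differed from WT by 0.69 ± 0.304 (adjusted p = 0.101). Trim30a, a mouse regulator of toll-like receptor signalling, belongs to a family of near-identical copies between which reads may be split. Its CPM were 160, 25.5, 29.2, 34.1 and 29.5 in TNFR1 triple knockout replicates 1 to 5, 47.8, 29.4, 39, 34 and 317 in MLKL triple knockout mice and 20, 51, 21.2, 67.2 and 48.5 in the double knockout. Trim30a stood at 20.6, 28.2, 26.6, 27.4 and 271 CPM in Xbp1 knockout mice and 33.8, 14, 45.8, 34.7 and 26.4 CPM in Casp8 knockout mice, against 21.5, 16.5, 26.3, 15.8 and 22.5 CPM in WT. Its high libraries stood far above the rest, and the double knockout differed from WT by 1.0 ± 0.704 (adjusted p = 0.328). Ifi35, an interferon-induced leucine zipper protein, is given because it passed in the double knockout against the Casp8 knockout (1.06 ± 0.321, adjusted p = 0.02). For Ifi35 the TNFR1 triple knockout libraries held 29.1, 10.3, 16.1, 14.2 and 20.1 CPM, the MLKL triple knockout 18.9, 17.1, 21.3, 17.2 and 47.6 CPM and the double knockout 22.2, 19.9, 15.3, 36.9 and 24.5 CPM. Those of the Xbp1 knockout held 11.9, 15, 15.1, 19 and 45.1 CPM and those of the Casp8 knockout 11.2, 9.07, 13.2, 12.4 and 10.6 CPM, against 14.5, 15.1, 13.7, 13.5 and 15.3 CPM in WT. All 5 Casp8 knockout libraries were below every WT library for this gene, and all 5 double knockout libraries were above every Casp8 knockout library.

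The other 17 members are given by range. Oas2, Oas3 and Oas1a, the synthetases that activate RNase L, were low in WT. Oas3 had 16.5, 31.7 and 16.9 CPM in the 3 high libraries, against 0 to 5.66 CPM in the other 27 libraries, with 4 of 5 WT libraries at 0. Oas2 had 46, 116 and 84.9 CPM, against at most 4.59 CPM elsewhere. Oas1a had 5.09, 7.74 and 6.38 CPM, close to its 4.84 CPM in MLKL triple knockout replicate 3. Mx1, a GTPase that blocks viral replication, had 8.97, 40.6 and 35.1 CPM in the 3 libraries, against at most 8.41 CPM elsewhere, and its relative Mx2 had 4.85, 22 and 10.9 CPM, against at most 2.6 CPM elsewhere. Ifi44 had 153, 314 and 238 CPM, against at most 35.5 CPM elsewhere. Rsad2 (viperin), which makes a chain-terminating nucleotide, had 79, 256 and 123 CPM, against at most 58.6 CPM elsewhere. Apart from Oas1a, these genes combined low WT levels with values far above WT in the 3 libraries. Mx1 in the library labelled TNFR1 triple knockout replicate 1 (8.97 CPM) was close to its highest value elsewhere (8.41 CPM). Eif2ak2, the kinase PKR that stops translation on double-stranded RNA, had 51.9, 59.7 and 56.2 CPM in the 3 libraries, against 16 to 19.1 CPM in WT. Bst2 (tetherin), which holds budding virus at the cell surface, had 35.1, 50 and 49 CPM, against 4.48 to 7 CPM in WT. Herc6, the main ligase for ISG15 in the mouse, had 69.1, 120 and 99.1 CPM, against 8.55 to 13.5 CPM in WT. Oasl1, Xaf1, Cmpk2 and Sp100 showed the same order, with 37.3 to 114 CPM in the 3 libraries, against 4.81 to 27.7 CPM in WT. The next highest library for all 7 of these genes was double knockout replicate 4. Ifit2, a relative of Ifit1, was an exception in that double knockout replicate 4 had 35.7 CPM, above the library labelled TNFR1 triple knockout replicate 1 (28.6 CPM) and Xbp1 knockout replicate 5 (26.4 CPM). Ifit3, another relative, had 36.4, 110 and 109 CPM in the 3 libraries, against at most 14.3 CPM elsewhere. Slfn5, a nuclear regulator, had 68.3, 188 and 96.6 CPM there, against 11.1 to 13 CPM in WT, and was above every WT library in 1 of 5 MLKL triple knockout libraries. The median of the MLKL triple knockout was below that of WT for 3 members, Slfn5, Ifit2 and Ifit3, with ratios of 0.941, 0.976 and 0.757. Spearman's rho of a member with the mean of the other members over the 30 libraries ran from 0.48 for Oas1a and 0.50 for Slfn5 to 0.97 for Oasl2, Ifit1 and Herc6; this describes these libraries, which share genotypes and 3 high values. Counts of Ifit3 and the Oas1 genes may be split with near-identical copies, and Mx2 is annotated as a polymorphic pseudogene.

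The comparisons of genotypes used 1 fit of all 30 libraries. In the double knockout against WT 4 of 34 members (11.8%) passed, all higher, namely Parp9, Dtx3l, Oasl2 and Ifit1, where 11.1% of all genes tested passed as higher. An unadjusted p under 0.05 was found for 19 of 34, all higher, where 17.8% of all genes were higher at that p, and the median log2 fold change of the 34 was 1.25, against 0.01 over all genes. The count was 1 without double knockout replicate 4 or 5 or WT replicate 1, 2 or 4, and 2 without WT replicate 3 or 5. It was 7 without double knockout replicate 3. In a fit of the double knockout and WT alone, 22 of 34 members passed, all higher, with the 4 above among them, where 9.31% of all genes passed as higher. The members' share was near the background in the first fit and above it in the second. The second fit leaves out every library of the other genotypes, the 3 high ones among them, and filters and scales the counts anew. Why the 2 counts differ was not tested. By overlap, a description added after the data were seen, 6 of 34 members (17.6%) were above every WT library in all 5 double knockout libraries, against 6.58% of all genes tested. That count was 19 without double knockout replicate 3 (8.48% of all genes) and 12 without WT replicate 5 (8.58%).

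In the MLKL triple knockout against WT 2 of 34 members passed, Oasl2 and Rtp4, both higher (5.88%, with a background of 0.343%), and 33 were higher at an unadjusted p under 0.05, as were 7.93% of all genes. The median log2 fold change was 1.93. Leaving out any 1 of the 10 libraries brought the count to 0. By the same overlap 19 of 34 members were above every WT library in all 5 MLKL triple knockout libraries, where 1.97% of all genes tested were. The same 19 members were so without the library labelled MLKL triple knockout replicate 5, where 2.88% of all genes were. These 19 included Isg15, Oasl2, Irf7, Irf9, Stat2, Usp18 and Rtp4. The median member was 1.14 above WT on the mean log2 scale with all 5 libraries and 0.75 without that library. All 5 mice of this group were female and 4 of 5 WT mice were male, so sex and genotype cannot be told apart in this comparison; with sex as a term 0 members passed.

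In the Xbp1 knockout against WT 0 of 34 members passed by edgeR, where 0.0582% of all genes passed as higher; 24 members were higher at an unadjusted p under 0.05, as were 6.55% of all genes, and 5 passed by DESeq2, where 0.656% of all genes did as higher. The median log2 fold change of 1.47 rested on replicate 5: on the mean log2 scale the median member was 0.73 above WT with all 5 libraries and 0.25 without it. In the TNFR1 triple knockout against WT 0 passed by edgeR, with a background of 1.16%, 17 were higher at an unadjusted p under 0.05, as were 9.05% of all genes, and 4 passed by DESeq2, where 1.99% of all genes did as higher. There the median member was 0.82 above WT with all 5 libraries and 0.49 without replicate 1. By overlap 6 members were above every WT library in the TNFR1 triple knockout (2.35% of all genes tested) and 4 in the Xbp1 knockout (2.06%). The first count was 10 without replicate 2 (3.69% of all genes) or replicate 5 (3.18%) of the TNFR1 triple knockout. The second was 11 without Xbp1 knockout replicate 3 (3% of all genes) and 7 without WT replicate 5 (3.03%). In the TNFR1 triple knockout 4 of 5 mice were female, against 1 of 5 in WT, so sex moves with genotype there too, and with sex as a term 0 members passed. In the Casp8 knockout against WT 0 passed by edgeR (background 0.634%) and 0 by DESeq2 (background 1.23%), and the median log2 fold change was 0.54. There 0 members had an unadjusted p under 0.05, where 7.78% of all genes were higher and 7.87% lower. By overlap 1 member, Eif2ak2, was above every WT library there (2.77% of all genes) and 1, Ifi35, below (2.54%). A fit of the groups compared alone gave 5 members in the TNFR1 triple knockout, 12 in the MLKL triple knockout, 0 in the Xbp1 and 4 in the Casp8 knockout, each against WT, all higher, where 1.27%, 0.859%, 0.804% and 1.74% of all genes passed as higher.

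**Figure D4:**
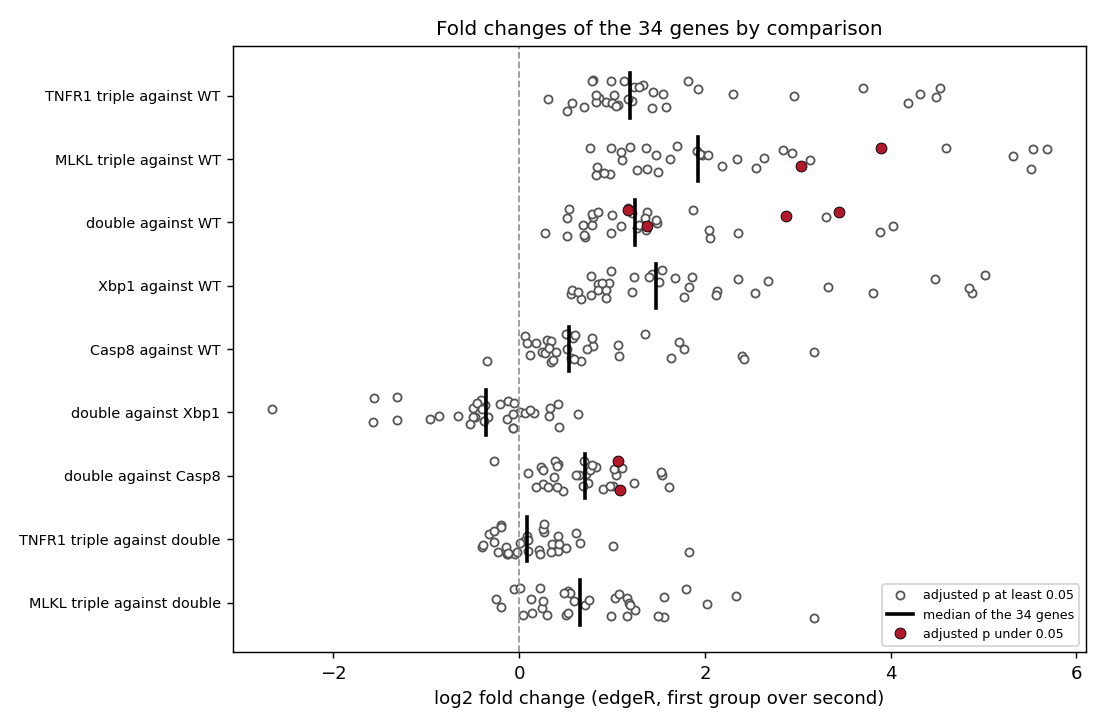
Each point is the log2 fold change of 1 of the 34 genes in 1 comparison (first group over second), filled where the adjusted p was under 0.05, with a bar at the median of the 34. Medians against WT run from 0.54 in the Casp8 knockout to 1.93 in the MLKL triple knockout, and 4, 2 and 2 genes are filled in the double and the MLKL triple knockout against WT and in the double against the Casp8 knockout.

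The median library of each group gives another view of the levels. The ratio of group medians to WT had a median over 33 members of 1.57 in the TNFR1 triple knockout, 1.71 in the MLKL triple knockout, 2.24 in the double knockout, 1.27 in Xbp1 knockout mice and 1.42 in Casp8 knockout mice. A ratio of at least 2 was reached by 10, 14, 22, 2 and 8 members in that order. The ratio in the double knockout was highest for Isg15 (12.2) and Ifit1 (11.9). Oas3 has no ratio because its WT median was 0. These ratios carry no test.

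Members passing in comparisons between knockouts were few. In the double knockout against the Casp8 knockout 2 of 34 passed, Parp9 and Ifi35, both higher (5.88%, with a background of 9.68%), and the count was 0 without double knockout replicate 4 or Casp8 knockout replicate 2. It was 1 without double knockout replicate 1, 2 or 5 or Casp8 knockout replicate 1 or 5. In the double knockout against the Xbp1 knockout 0 passed by edgeR and 0 by DESeq2 in either direction, and 4.77% of all genes passed as higher by edgeR. At an unadjusted p under 0.05 there were 0 members, where 13.2% of all genes were higher and 11.8% lower. The median log2 difference was -0.36, with 9 of 34 members positive and Xbp1 knockout replicate 5 among the libraries. By contrast, the median ratio of group medians to WT was larger in the double knockout (2.24) than in the Xbp1 knockout (1.27). The TNFR1 triple knockout against the double knockout gave 0 by edgeR and 0 by DESeq2, with a median log2 difference of 0.08. It had 0 members at an unadjusted p under 0.05, where 8.69% of all genes were higher and 9.5% lower. The MLKL triple knockout against the double knockout gave 0 by both tools, with a median of 0.65. It had 2 of 34 members higher at an unadjusted p under 0.05, where 11.3% of all genes were higher. Of all genes 2.35% and 7.65% passed in either direction in these 2 comparisons. Sex was uneven in both: females numbered 1 of 5 among double knockouts, 4 of 5 among TNFR1 triples and 5 of 5 among MLKL triples. Sex thus moves with genotype here as well, and neither median can be assigned to genotype alone. The interaction of the Xbp1 and Casp8 deletions gave 0 by both tools, where 1.38% of all genes passed by edgeR. At an unadjusted p under 0.05 it had 1 member lower, where 8.89% of all genes were lower. By overlap 1 member, Ifi35, was higher in every double knockout library than in every Casp8 knockout library (4.36% of all genes), which became 6 without double knockout replicate 3 (6.42%) and 2 without Casp8 knockout replicate 3 (5.6%). By the same overlap 0 members differed between the double and the Xbp1 knockout (3.21% of all genes higher and 2.96% lower), between the TNFR1 triple and the double knockout (1.05% and 1.22%) or between the MLKL triple and the double knockout (2.63% and 2.41%). None of this shows that the members were alike in these groups. Fitted differences ran from -2.66 to 0.63 in the double against the Xbp1 knockout. They ran from -0.40 to 1.83 in the TNFR1 triple and from -0.25 to 3.17 in the MLKL triple knockout, each against the double knockout.

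Within the Casp8 knockout the libraries divided by the sex of the mouse, which was read from the expression of sex-linked genes. The 3 females (replicates 1, 3 and 4) were above both males (replicates 2 and 5) for 27 of 34 members, where 9% of all genes tested were. Isg15 had 16.9, 43.2 and 39.3 CPM in the females, against 3.63 and 2.45 CPM in the males. All 3 females had a mean over the members above every WT library, and 0 of the 2 males did. The 3 high libraries of the other genotypes were also female. The other 3 females of the TNFR1 triple knockout had means of 3.39, 4.09 and 3.58, around the 3.55 of its male, and the other 2 females of the Xbp1 knockout had 3.5 and 3.12, around the 3.36 and 3.37 of its males. All 5 mice of the MLKL triple knockout were female. The 1 female of the double knockout, replicate 3, was its lowest library at 3.15, and the 1 WT female lay inside the WT range at 2.98. This split was looked at after the data were seen, and it carries no test.

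The rest of the pathway was counted from lists of named genes. Of 21 interferon ligands 19, among them Ifnb1, the interferon alpha genes and Ifnl2 and Ifnl3, had 0 reads in every library, which allows up to 0.515 to 0.853 CPM by a floor of 3 reads in the largest and the smallest library. Ifnk, a keratinocyte interferon, had 44 reads in all, at most 4 in a library. Ifng, the type II interferon, had 19 reads in all, of which 15 were in the double knockout. 

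Of the 6 receptor genes 1 passed: Ifnar2 rose in the double knockout relative to WT (0.51 ± 0.15, adjusted p = 0.0148). Its partner Ifnar1 (0.17 ± 0.19, adjusted p = 0.562), both chains of the interferon lambda receptor, Ifnlr1 (0.44 ± 0.201, adjusted p = 0.118) and Il10rb (0.14 ± 0.106, adjusted p = 0.356), and both chains of the interferon gamma receptor, Ifngr1 (0.07 ± 0.1, adjusted p = 0.674) and Ifngr2 (0.11 ± 0.0958, adjusted p = 0.424), did not pass. The kinases Jak1 and Tyk2 had log2 fold changes of -0.01 each. Jak2, another kinase, rose in that comparison (0.36 ± 0.11, adjusted p = 0.0197), as did the feedback genes Socs1 (3.24 ± 0.568, adjusted p = 1.59e-04) and Socs3 (2.11 ± 0.513, adjusted p = 0.00363), which block JAK kinases. Among 20 tested sensors and adaptors 6 rose in the double knockout against WT, where 11.1% of all genes did, with the 4 of smallest p being Unc93b1, which carries toll-like receptors to endosomes (0.97 ± 0.178, adjusted p = 2.56e-04), Irf8 (0.71 ± 0.151, adjusted p = 0.0011), Zbp1, a sensor of Z-form nucleic acid that can start necroptosis (2.70 ± 0.73, adjusted p = 0.00827), and Trex1, a DNase (0.89 ± 0.285, adjusted p = 0.0241). Zbp1 had 75.4, 102 and 91.3 CPM in the 3 high libraries, in the order used above, and 12.1 to 72.7 CPM in the double knockout, against 4.6 to 9.75 CPM in WT. Among 42 tested further interferon stimulated genes 11 rose in the double knockout against WT, with the same background of 11.1%, led by Ifitm2 (0.68 ± 0.119, adjusted p = 1.48e-04) and Ifitm1 (1.63 ± 0.331, adjusted p = 7.34e-04), which block viral entry, Parp12 (1.01 ± 0.265, adjusted p = 0.00656) and Slfn1 (3.99 ± 1.23, adjusted p = 0.0193). The 3 high libraries were the 3 highest of 30 for 23 of these 42 genes, against 0.589% of all genes tested.

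Genes of the interferon gamma response were counted for comparison. Of the 24 on that list 22 were tested, and 22 of 22 rose in the double knockout against WT with a median log2 fold change of 2.61, where 11.1% of all genes passed as higher. Those of smallest p were Cd74 (2.69 ± 0.384, adjusted p = 1.71e-05), H2-Ab1 (2.10 ± 0.325, adjusted p = 4.30e-05), H2-Aa (2.34 ± 0.371, adjusted p = 5.74e-05) and H2-Eb1 (2.03 ± 0.336, adjusted p = 9.24e-05), which present antigen on MHC class II. For 0 of these 22 were the 3 high libraries the 3 highest, which is near the share of 0.589% over all genes tested. The mean log2 CPM of the 22 was 5.96, 5.51 and 5.17 in the library labelled TNFR1 triple knockout replicate 1, the library labelled MLKL triple knockout replicate 5 and Xbp1 knockout replicate 5, and 7.1 and 6.64 in double knockout replicates 4 and 5, against 2.8 to 3.8 in WT.

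**Figure D5:**
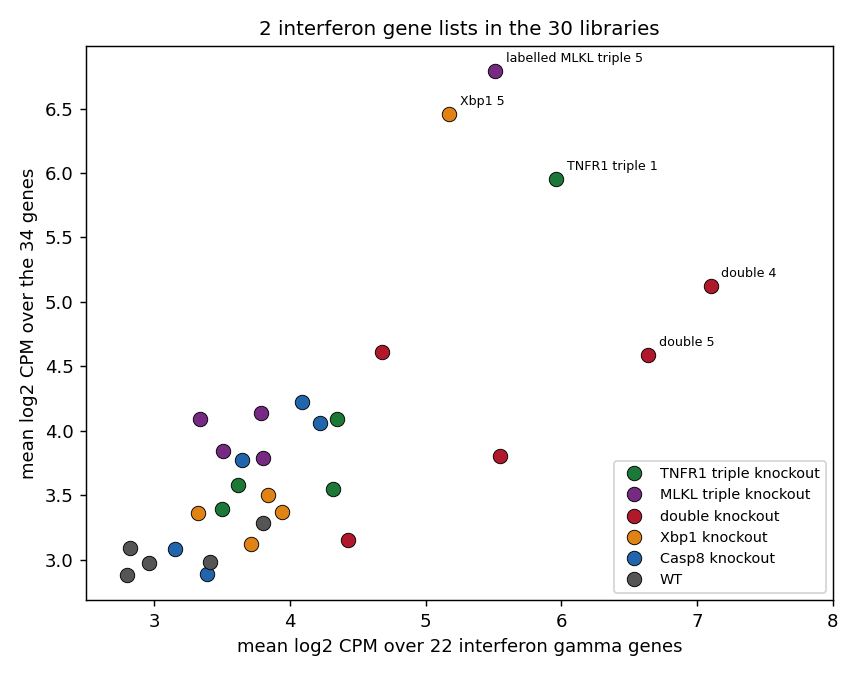
Each point is 1 library, placed by its mean log2 CPM over 22 interferon gamma genes (horizontal axis) and over the 34 type I interferon stimulated genes (vertical axis), coloured by genotype. Double knockout replicates 4 and 5 lie furthest right at 7.1 and 6.64, and the 3 high libraries lie at the top between 5.95 and 6.79.

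Markers of other cell types were read in the same libraries. Of 9 markers of plasmacytoid dendritic cells, the main makers of interferon alpha, 7 were tested, with a mean log2 CPM of 3.93, 4.22 and 4.22 in the library labelled TNFR1 triple knockout replicate 1, the library labelled MLKL triple knockout replicate 5 and Xbp1 knockout replicate 5, against 3.73 to 4.15 in WT. Siglech, a receptor that defines these cells, had 1.7, 3.38 and 0.455 CPM in the 3 libraries and 0.198 to 0.977 CPM in the double knockout, against 1.37 to 1.55 CPM in WT, and Cox6a2 was at 0 in 10 of 30 libraries. The summed level of the 9 ran from 624 to 1108 CPM in the TNFR1 triple knockout, 1111 to 1291 CPM in the MLKL triple knockout, 615 to 799 CPM in the double knockout, 932 to 1053 CPM in Xbp1 knockout mice and 641 to 890 CPM in Casp8 knockout mice, against 804 to 1067 CPM in WT. Most of that sum was Klk1 and Tcf4, which other colon cells also express.

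Over 15 monocyte and macrophage markers the mean log2 CPM was 4.3, 4.82 and 4.4 in the 3 high libraries and 4.05 to 5.32 in the double knockout, against 3.61 to 4.02 in WT. Their summed level was 442 to 568 CPM in the TNFR1 triple knockout, 323 to 685 CPM in the MLKL triple knockout, 428 to 925 CPM in the double knockout, 412 to 537 CPM in Xbp1 knockout mice and 320 to 424 CPM in Casp8 knockout mice, against 312 to 489 CPM in WT. In the double knockout against WT 10 of the 15 passed as higher and 1 as lower, where 11.1% of all genes passed as higher. Ly6c2, a marker of inflammatory monocytes, had 23.3, 23.9 and 6.83 CPM in the 3 libraries and 6.88 to 28 CPM in the double knockout, against 0.916 to 1.39 CPM in WT. Cd163, another of the 15, went the other way in the double knockout, with 6.55 to 12.8 CPM. It had 2.42, 17.6 and 18 CPM in the 3 libraries, against 14.2 to 25.1 CPM in WT. Of 12 neutrophil markers 3 were tested, with a mean log2 CPM of 4.29, 3.14 and 2.52 in the 3 libraries and 4.67 to 7.76 in the double knockout, against 1.62 to 3.54 in WT. The markers differed widely in level: in WT, Ly6g had 137 to 267 CPM, S100a8 0 to 1.39 CPM and S100a9 0 to 2.78 CPM. The part of these cells in the members' values was not tested.

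Other lists also differed between the double knockout and WT. In that comparison 11.1% of all genes passed as higher, and 16.6% were lower at an unadjusted p under 0.05. All 8 smooth muscle markers were lower, by that p and by the adjusted p (median log2 fold change -0.98). Their summed level was 3174 to 4758 CPM in the double knockout, against 6554 to 9022 CPM in WT. That sum was 3900, 4981 and 6199 CPM in the 3 high libraries. Of 16 T and NK cell markers 5 were tested and all 5 were higher (median 2.48), with a sum over the 16 of 16.3 to 71.2 CPM in the double knockout and 37.3, 36 and 16.9 CPM in the 3 libraries, against 4.16 to 11.4 CPM in WT. Of 10 plasma cell markers 7 were higher (median 2.26), with sums of 2131 to 9939 CPM in the double knockout and 6479, 3671 and 788 CPM in the 3 libraries, against 403 to 1095 CPM in WT. Of 11 colonocyte markers, which define the tissue's epithelium, 6 were higher and 1 lower in the double knockout. Their sum was 7362 to 11451 CPM in the double knockout, against 7876 to 9690 CPM in WT. The part of these cells in the members' values was likewise not tested.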

How the data were processed

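Colon RNA of 30 mice (6 genotypes, 5 mice each) was measured with 3′ tag libraries (QuantSeq FWD), per the labels' protocols. The authors deposited estimated counts, 1 value for each Ensembl gene and library; 11.2% of those above 0 were fractional. The submitters' processing notes name GRCm38 (mm10), R 4.0.0, featureCounts 2.01, Subread and cutadapt 3.2; strand setting and sharing of reads between genes: not given in the sources used here. No molecular identifiers are named, so floors cover counting error only. Of 55487 gene identifiers 55227 were paired with a symbol (GENCODE annotation of GRCm38), and 92 spike-in features were left out.

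Counts were rounded, filtered with filterByExpr (15458 genes kept, 27.9%) and fitted for all libraries together with edgeR 4.0.16 (R 4.3.3, TMM, quasi-likelihood test, Benjamini-Hochberg adjustment within each comparison, threshold 0.05). The common biological coefficient of variation was 0.186, and the fit was tested on simulated data. SE is the log2 fold change divided by the square root of F. Log2 CPM used a prior count of 2. CPM are counts per 1000000 reads, scaled by TMM.

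The members and the gene lists were chosen with earlier results of these data known. Values in every library are given for the 10 members of highest mean CPM, for those with a role in sensing and signalling, and for Ifit1, Rtp4 and Ifi35, which passed a test. Of other lists up to 4 genes of smallest p are named, of the receptor and kinase genes Jak2 in addition, and 1 item is not reported here. Mice are separate animals, with sex read from sex-linked genes (17 females, 13 males). Replicate numbers did not pair libraries: of 75 same-number pairs 19 correlated over 0.1 (range -0.27 to 0.28), and in 0 of 15 pairs of groups did all. Alternatives were no low-count filter, DESeq2 1.42.0 and its size factors, limma 3.58.1 voom with quality weights, only the groups compared, the replicate number as a block, sex as a term and each library left out in turn. Overlap counts, library totals in place of TMM and the split of the Casp8 knockout by sex were added after the data were seen.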

Additional observations from a re-analysis of the deposited data

Results flagged for a closer look

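Dixon's criterion was applied in groups of 5 libraries. It singled out a library where its gap to the nearest other library was more than 0.71 of the group's range. The values were the mean of the 34 members and the CPM of the 17 members shown library by library, in 108 sets of 5 values. A rate by chance of about 1 set in 20 holds for unrelated sets of normally distributed values. These sets are not unrelated, because the members shared the same mice and rose together in them. Some members were also picked by their mean CPM over all libraries, which the high libraries raise. The number of sets singled out therefore cannot be compared with that rate.

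The library labelled TNFR1 triple knockout replicate 1 was singled out for the mean log2 CPM over the members (5.95) and for 16 of the 17 members. Its CPM were 196 for Parp14, 156 for Ifih1, 155 for Samd9l, 139 for Irf9, 164 for Irf7, 152 for Dtx3l, 212 for Oasl2 and 160 for Trim30a. Further, they were 218 for Isg15, 113 for Parp9, 69.1 for Ddx58, 29.3 for Dhx58, 78.8 for Stat2, 22.8 for Usp18, 184 for Ifit1 and 158 for Rtp4.

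The library labelled MLKL triple knockout replicate 5 was singled out for the mean (6.79) and for all 17 members. Its CPM were 221 for Parp14, 207 for Ifih1, 176 for Samd9l, 167 for Irf9, 284 for Irf7, 139 for Dtx3l, 355 for Oasl2, 317 for Trim30a and 552 for Isg15. Further, they were 124 for Parp9, 105 for Ddx58, 55.1 for Dhx58, 121 for Stat2, 55.6 for Usp18, 398 for Ifit1, 224 for Rtp4 and 47.6 for Ifi35.

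Xbp1 knockout replicate 5 was singled out for the mean (6.46) and for all 17 members. Its CPM were 176 for Parp14, 182 for Ifih1, 158 for Samd9l, 158 for Irf9, 333 for Irf7, 150 for Dtx3l, 336 for Oasl2, 271 for Trim30a and 321 for Isg15. Further, they were 116 for Parp9, 83.3 for Ddx58, 48.7 for Dhx58, 92.5 for Stat2, 24.4 for Usp18, 247 for Ifit1, 231 for Rtp4 and 45.1 for Ifi35.

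Outside these libraries, double knockout replicate 4 was singled out for Usp18 (17.7 CPM) and WT replicate 5 for Samd9l (66.1 CPM).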

How the results depend on the processing

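The count of members past the threshold was 4 in the double knockout against WT. It was 11 with no low-count filter, 9 by DESeq2, 7 by voom with sample weights, 7 with the replicate number as a block and 7 with sex as a term. A fit of the groups compared gave 22, and leaving out 1 library gave 1 to 7. Of all genes 11.1% passed as higher in the main fit, 11.6% by DESeq2 and 9.31% in the fit of the groups compared. In the MLKL triple knockout against WT the count was 2. It was 15 with no filter, 10 by DESeq2, 0 with the replicate block and 0 with sex as a term. A fit of the groups compared gave 12, and each leave-out gave 0. The shares of all genes passing as higher were 0.343% in the main fit, 0.987% by DESeq2 and 0.859% in the fit of the groups compared. In the double against the Casp8 knockout it was 2, with 1 under the replicate block, 6 in a fit of the groups compared and 0 to 2 when a library was left out. There 9.68% of all genes passed as higher in the main fit and 5.93% in the fit of the groups compared. From a count of 0 each, the TNFR1 triple knockout against WT gave 4 with no filter, 4 by DESeq2 (1.99% of all genes higher) and 5 in a fit of the groups compared (1.27%). The Xbp1 knockout against WT gave 5 by DESeq2 (0.656%), and the Casp8 knockout against WT gave 4 in a fit of the groups compared (1.74%). Shares of all genes under the other settings are not given here, so those counts are not set against a background. No member's fold change for which these alternatives were run changed sign. Overlap counts moved under library totals in place of TMM, to 2 in the Xbp1 knockout against WT (4 before) and to 2 in the double against the Casp8 knockout (1 before). With 1 library left out they ran from 6 to 10 in TNFR1 triple knockout mice, from 19 to 22 in MLKL triple knockout mice, from 6 to 19 in double knockout mice, from 4 to 11 in Xbp1 knockout mice and from 2 to 4 in Casp8 knockout mice, each against WT. They ran from 1 to 6 in the double against the Casp8 knockout, 0 to 1 in the double against the Xbp1 knockout and 0 to 1 in the TNFR1 triple against the double knockout. With 1 library left out, the SD of the members' mean level between libraries ran from 0.302 to 1.23 in TNFR1 triple knockout mice, from 0.174 to 1.45 in MLKL triple knockout mice, from 0.545 to 0.869 in double knockout mice, from 0.16 to 1.59 in Xbp1 knockout mice, from 0.504 to 0.672 in Casp8 knockout mice and from 0.087 to 0.173 in WT mice. The cause of these moves was not tested. Members at a few CPM, such as Oas3 and Mx2, rest on few reads.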
